A study of Mus musculus with 12 samples.

Results

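Leukemic cells of total bone marrow were compared with the normal LSK compartment across all genes. The comparison rests on 6 of the study's 12 libraries, the 3 iMLL-ENL total and the 3 wt LSK libraries that share a count table, and on 13811 genes tested of 24028 counted. All mice were C57BL/6. The wt LSK cells came from the bone marrow of wild type/control mice, depleted of lineage-positive cells and sorted by FACS for Sca-1 and c-kit. Cells of iMLL-ENL total came, with no sort, from the whole bone marrow of mice with a doxycycline-inducible iMLL-ENL knock-in, given doxycycline until acute leukemia. The labels give 3 animals per genotype and do not tie a library to a mouse, and p-values here reflect how much libraries vary, which may be technical. Genotype, doxycycline, leukemia and sort all differ between the groups and cannot be told apart, and no other normal cells stand in this comparison. Nor can fewer cells of a type be told apart from less RNA per cell.

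MLL-ENL joins the front part of the histone methyltransferase MLL, encoded by Kmt2a, to ENL, encoded by Mllt1, a reader of acetylated histones that takes part in transcription elongation. The fusion keeps progenitor genes such as the late Hoxa genes active and causes acute leukemias, mostly myeloid ones in mice. LSK cells lack mature lineage markers, carry c-Kit and Sca-1, and hold the hematopoietic stem cells and multipotent progenitors.

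Library totals were alike, from 18227843 to 19607722 counts in wt LSK and from 18001563 to 22706882 in iMLL-ENL total. The leukemic libraries were less alike: 18.5% to 28.7% of genes were at least 2-fold apart between any pair of them, against 7.3% to 11.5% between wt LSK pairs. All 10 LSK markers checked were lower in the leukemic libraries, and 9 of 10 myeloid markers were higher. The LSK markers include Kit and Ly6a, which encode the c-kit and Sca-1 that wt LSK was sorted for. The wt LSK cells were also depleted of lineage-positive cells. Directions of such markers were thus partly set by the sort, and the marker counts are no independent check of cell identity. Levels below are CPM, each gene's counts per 1000000 counts of its library, in the order of replicates 1, 2 and 3. Changes are log2 fold changes of iMLL-ENL total over wt LSK with their standard error (SE) from edgeR's quasi-likelihood test, and a gene is called at a Benjamini-Hochberg adjusted p under 0.05. Where a gene is said to rise or fall by a value with no unit, that is its log2 change. Coordinates are on GRCm38. Kmt2a itself (NCBI gene 214162, chromosome 9, 44803355 to 44881352) had 1532, 1143 and 1337 CPM in wt LSK and 566, 324 and 494 CPM in the leukemic libraries. Its groups did not overlap (log2 change -1.39, SE 0.26, edgeR adjusted p = 0.00446). Mllt1 had 43.9, 44 and 40.1 CPM and 39.5, 26.2 and 34.4 CPM and was not called (log2 change -0.20, SE 0.23, edgeR adjusted p = 0.542). These counts do not tell the fusion from the normal alleles, and whether they hold reads of the fusion is not known. The levels are thus no check of the knock-in.

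The differences were broad and reached further down than up. Of the genes tested 30.6% were called, 15.5% higher and 15.1% lower in iMLL-ENL total. The median change of the genes called higher was 1.59 and that of the genes called lower was -2.73, beside 0.05 over all genes tested. At least 4-fold changes were found in 836 genes called higher and 1306 called lower, and at least 64-fold changes in 180 and 363. There were 141 genes called lower with 0 counts in all 3 leukemic libraries and 42 called higher with 0 counts in all 3 wt LSK libraries. The libraries of both groups did not overlap in 48.5% of all genes tested and in 98.41% of those called. Every called gene that the rule for named genes took had no overlap. Upper quartile scaling moved the median change of all genes to -0.11 and the share of calls that were higher from 50.6% to 41.1%. The number of calls was 2658 without wt LSK replicate 1 and 2636 without wt LSK replicate 3, against 4221 with all libraries.

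**Figure D1:**
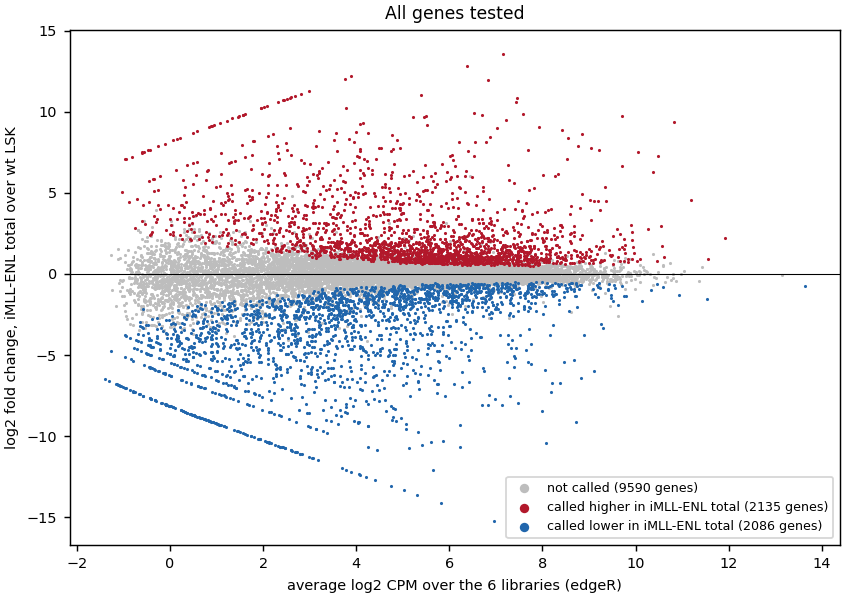
Each point is one of the 13811 genes tested, at its average log2 CPM over the 6 libraries (x axis) and its log2 fold change of iMLL-ENL total over wt LSK (y axis), colored by call. The falls reach further from 0 than the rises, with a median of -2.73 for genes called lower and 1.59 for genes called higher.

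The most abundant transcripts were different ones. To compare genes with each other, counts were divided by the gene's width and scaled to 1 common sum per library, a level per length. Of the 10 genes with the highest mean level per length, only Mir6236 and Srgn stood in both groups, and of the 100 highest, 54 did. Of the leukemic 100, 62 were called higher and 4 lower. Mir6236, annotated as a microRNA precursor gene, has a width of only 123 bases, by which its counts are divided. Which RNA its reads came from was not tested. Next to Mir6236, the leukemic top 10 held S100a9 and S100a8, which encode the subunits of calprotectin, and Lyz2, the lysozyme gene. It also held Tmsb4x, which encodes the actin-binding thymosin beta 4, the granule genes Elane, Mpo and Ngp, Chil3, which encodes a chitinase-like protein, and Srgn, which encodes the granule proteoglycan serglycin. S100a9 had a level per length of 2569, 22410 and 20880 in iMLL-ENL total replicates 1, 2 and 3, so replicate 1 lay far under the others. The wt LSK top 10 held B2m, the light chain of MHC class I, Malat1, Rpl4, Atp5b, Xist, Hsp90ab1, Serinc3 and Fos. B2m led wt LSK with a level per length of 19920, 21690 and 19420 and had 5564, 6712 and 3220 in iMLL-ENL total. Its CPM fell by 1.56 as a log2 change (edgeR adjusted p = 0.00622). Malat1, Rpl4 and Atp5b were not called, with adjusted p from edgeR of 0.898, 0.737 and 0.966.

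Among abundant genes, at a mean log2 CPM of 7 or more, the largest rises included those of Stfa1, Penk, Stfa3, Abca13, Cstdc5, Chil3, Cstdc4, Stfa2 and Olr1. Abca13, which encodes a large lipid transporter of the ABC family (NCBI gene 268379, chromosome 11, 9191942 to 9684871), had 1.61, 3.51 and 1.12 CPM in wt LSK and 1532, 1406 and 1784 CPM in the leukemic libraries. It was low in every normal library and similar in the leukemic ones (log2 change 9.73, SE 0.48, edgeR adjusted p = 1.37e-05). Olr1, which encodes the receptor LOX-1 for oxidized LDL (NCBI gene 108078, chromosome 6, 129479150 to 129507350), went from 0.483, 1.65 and 2.4 to 568, 819 and 544 CPM (log2 change 8.89, SE 0.55, edgeR adjusted p = 3.3e-05). Penk, which encodes the opioid precursor proenkephalin, had 0.322, 0.329 and 0.051 CPM and 58.5, 559 and 362 CPM (log2 change 10.59, SE 1.11, edgeR adjusted p = 0.000434), with no call with limma-voom, and 10% or more of its exon bases are shared with A830012C17Rik, which an unstranded count cannot part from it.

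The largest falls of abundant genes included those of Car2, Hlf, Dntt, Dst, Arhgap32, Tspan13, Aff3, Bcl11a and Msi2. Msi2, which encodes an RNA-binding protein of stem cells (NCBI gene 76626, chromosome 11, 88339382 to 88718306), had 985, 809.6 and 1017 CPM in wt LSK and 9.13, 9.89 and 10.4 CPM in the leukemic libraries (log2 change -6.43, SE 0.24, edgeR adjusted p = 7.56e-06). The leukemic libraries lay close to each other and far under all normal ones. Arhgap32, which encodes a GTPase-activating protein (NCBI gene 330914, chromosome 9, 32016625 to 32268443), went from 406, 301 and 413 to 1.02, 1.56 and 1.5 CPM (log2 change -7.95, SE 0.32, edgeR adjusted p = 7.56e-06). Dst, which encodes the cytoskeletal linker dystonin, had 281, 261 and 333 CPM and 1.48, 0.889 and 0.484 CPM (log2 change -8.11, SE 0.41, edgeR adjusted p = 1.37e-05). Tspan13, a tetraspanin gene on chromosome 12, had 313, 374 and 309 CPM and 2.32, 1.06 and 1.37 CPM (log2 change -7.55, SE 0.33, edgeR adjusted p = 1.18e-05). For all 4 of these genes the groups lay far apart, with no overlap.

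**Figure D2:**
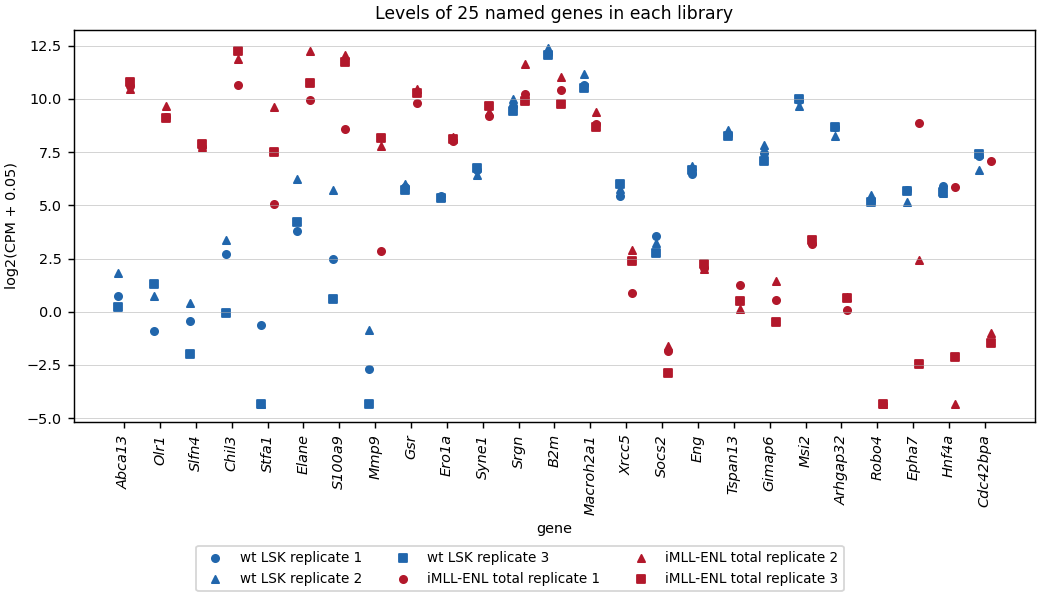
Levels of 25 named genes as log2(CPM + 0.05) (y axis) in each of the 6 libraries, with symbols for the replicate and colors for the group; points at the bottom edge are 0 counts. Abca13, Olr1 and Slfn4 sit high and close together in the 3 leukemic libraries, while Stfa1, S100a9, Mmp9, Epha7, Hnf4a and Cdc42bpa are spread over many doublings among them.

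The changes were then read by gene list, 46 of them given here, each given as members called of members tested with its median log2 change, against 15.5% higher, 15.1% lower and a median of 0.05 over all genes. The plot of lists shows the shares.

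**Figure D3:**
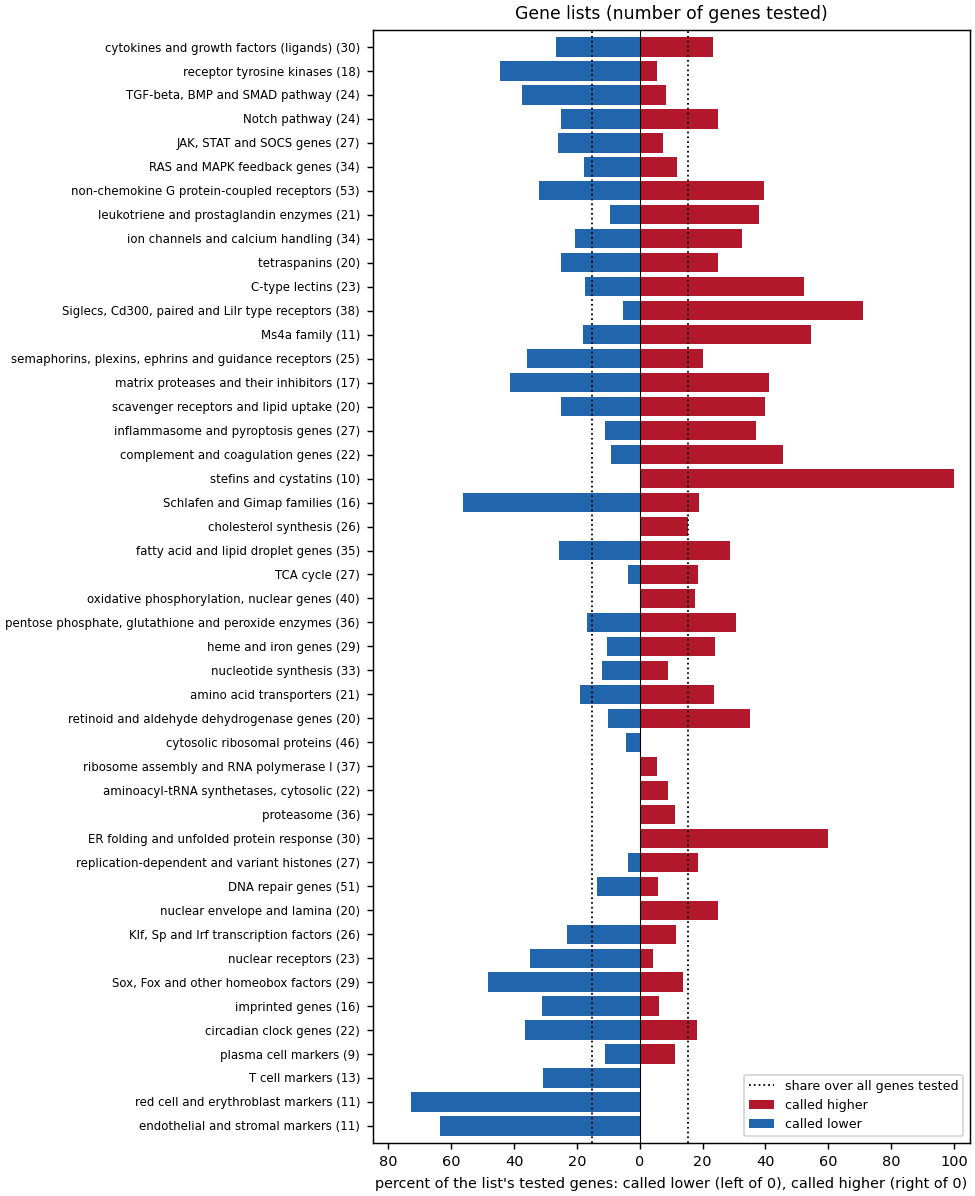
For each of 46 gene lists, the percent of its tested genes called higher (red, right of 0) or lower (blue, left of 0) in iMLL-ENL total, with the number tested in parentheses; dotted lines mark the shares over all genes, 15.5% and 15.1%. Stefins, Siglec and Lilr type receptors and ER folding genes reach furthest right, while red cell, endothelial and Gimap genes reach furthest left, and ribosomal protein and tRNA synthetase genes hardly leave 0.

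Lists of receptors that tune innate immune cells held more genes higher than lower. Siglecs, Cd300 molecules, Trem and paired immunoglobulin-like receptors signal through inhibitory motifs or through the adaptors DAP12 and DAP10. Of 38 tested, 27 were higher and 2 lower, with a median of 3.85, and 1 was lower with a minimum count of 50. Tyrobp, which encodes DAP12, had 7.04, 39.8 and 8.26 CPM in wt LSK and 176, 404 and 192 CPM in the leukemic libraries (log2 change 4.00, SE 0.73, edgeR adjusted p = 0.00493). Pilrb2, an activating paired receptor gene, had 0.43, 0 and 0.051 CPM and 20.5, 37.8 and 36.2 CPM (log2 change 7.71, SE 0.86, edgeR adjusted p = 0.000411). Mag, a Siglec gene best known from myelin (NCBI gene 17136, chromosome 7, 30899175 to 30914922), had 0 counts in wt LSK and 13.3, 15 and 7.97 CPM in the leukemic libraries, at least 223-fold higher when wt LSK is set to a floor of 3 counts in its summed libraries (edgeR adjusted p = 0.000317). The exceptions were Treml2, which fell by 1.79 (edgeR adjusted p = 0.00103), and the platelet receptor gene Treml1, which fell by 3.90 (edgeR adjusted p = 0.0076). Many of these genes are near copies of each other, and how reads that match several copies were counted is not given in the sources used here. Of 23 C-type lectin genes, which encode sugar and pathogen receptors, 12 were higher and 4 lower (median 1.25). Clec4a2 had 0.322, 1.1 and 0.255 CPM and 77.9, 239 and 104 CPM (log2 change 8.13, SE 0.70, edgeR adjusted p = 0.000158), and Clec5a 0.591, 3.07 and 0.663 CPM and 44.8, 108 and 234 CPM (edgeR adjusted p = 0.00133). The other way went Clec9a, a dendritic cell receptor gene, which fell by 3.35 (edgeR adjusted p = 0.0136) but lost its call without wt LSK replicate 2. Of 11 Ms4a genes, 6 were higher, led by Ms4a3 (log2 change 5.80) and Ms4a6d (5.05), and 2 were lower, Tmem176a and Tmem176b. Tmem176b fell from 183, 277 and 214 to 1.99, 3.83 and 3.66 CPM (log2 change -5.99, SE 0.34, edgeR adjusted p = 1.84e-05).

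G protein-coupled receptors changed often, in both directions: 21 higher and 17 lower of 53. The receptors that rose included those for formyl peptides and complement fragments, which guide neutrophils to bacteria. Fpr2 had 0, 0.878 and 0 CPM in wt LSK and 13.3, 68.9 and 87.7 CPM in the leukemic libraries (log2 change 7.79, SE 1.29, edgeR adjusted p = 0.0033), and C5ar1 0.591, 2.08 and 0 and 36.7, 184 and 151 CPM (edgeR adjusted p = 0.00241). Mrgpra2b, one of a family of near copies, had 2 counts in wt LSK and 2.32, 15.6 and 13 CPM in the leukemic libraries, a difference of 283-fold (95% counting interval 78.1 to 2344). The receptors that fell included the UDP-glucose receptor P2ry14, with 106, 118 and 112 and 1.25, 0 and 0.573 CPM (log2 change -7.32, SE 0.77, edgeR adjusted p = 0.000379), the thrombin receptor F2r, with 151, 127 and 147 and 1.58, 1.33 and 0.573 CPM (log2 change -6.79, SE 0.38, edgeR adjusted p = 1.84e-05), and Adgrg1, with 1043, 1190.2 and 1177 and 32.3, 4.39 and 12 CPM (log2 change -5.98, SE 0.70, edgeR adjusted p = 0.000655). The split of this list was 16 higher and 17 lower without wt LSK replicate 1 or without iMLL-ENL total replicate 3. Of 21 leukotriene and prostaglandin enzymes, 8 were higher and 2 lower, but 5 were lower without iMLL-ENL total replicate 1 or with limma-voom, 4 without iMLL-ENL total replicate 3 or with DESeq2's Wald test, and 1 without any 1 wt LSK library or with a minimum count of 50. Hpgd, which encodes the enzyme that inactivates prostaglandins (NCBI gene 15446, chromosome 8, 56294552 to 56321046), rose from 3.06, 2.91 and 1.33 to 298, 1779 and 540.0 CPM (log2 change 8.64, SE 0.87, edgeR adjusted p = 0.000369). Alox5, the 5-lipoxygenase gene that starts leukotriene synthesis, rose from 3.6, 1.76 and 3.62 to 38.1, 117 and 116 CPM (edgeR adjusted p = 0.000385). Pla2g7, which encodes the hydrolase of platelet-activating factor, had 3 counts in wt LSK and 10, 21.1 and 63.2 CPM in the leukemic libraries, a difference of 613-fold (95% counting interval 209 to 2975), with exons shared with 1700071M16Rik. Hpgds, the prostaglandin D synthase gene of mast cells, fell by 1.98 (edgeR adjusted p = 0.00857) and lost its call without wt LSK replicate 1.

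The next lists hold effector genes of innate immunity, most of them with more genes higher than lower. The 10 myeloid markers summed to 1619 to 2678 CPM in wt LSK and 9231 to 20790 CPM in iMLL-ENL total, and their part in the rises of innate receptors and effectors was not tested. All 10 stefin and cystatin genes tested, inhibitors of cysteine proteases, were higher (median 9.04). Stfa1 (NCBI gene 20861, chromosome 16, 36277148 to 36285371) had 0.591, 0 and 0 CPM in wt LSK and 33.4, 783 and 181 CPM in the leukemic libraries (log2 change 10.83, SE 1.79, edgeR adjusted p = 0.0048), so the leukemic libraries were spread widely, with replicate 1 the lowest, yet all above the normal ones. The stefin A genes on chromosome 16 are near copies, so their counts are uncertain one by one. Without wt LSK replicate 1 the list had 8 calls and a median of 13.7. Its calls fell to 3 without wt LSK replicate 3, to 3 with limma-voom and to 5 with no filter on low counts. Of 22 complement and coagulation genes, 10 were higher and 2 lower (median 1.03). Without iMLL-ENL total replicate 3, 4 of them were lower and the median was 0.39, and without wt LSK replicate 3, 1 was lower. F10, the factor X gene, had 0.859, 2.69 and 0.357 CPM and 138, 242 and 145 CPM (log2 change 7.24, SE 0.68, edgeR adjusted p = 0.000233), C3 6.93, 15.7 and 6.73 and 286, 445 and 978 CPM (edgeR adjusted p = 0.000341), and the haptoglobin gene Hp 4.19, 9.33 and 3.72 and 642, 679 and 767 CPM (edgeR adjusted p = 2e-05). F7, the factor VII gene, had 1 count in wt LSK and 12, 7.11 and 14 CPM in the leukemic libraries, a difference of 639-fold (95% counting interval 114 to 25272). Cd55, which encodes an inhibitor of complement, fell by 3.12 (edgeR adjusted p = 0.00802). Of 27 inflammasome and pyroptosis genes, 10 were higher and 3 lower, and 5 were lower without iMLL-ENL total replicate 3, with upper quartile factors or with limma-voom. Mefv, which encodes pyrin, had 0.43, 4.61 and 1.48 and 153, 164 and 145 CPM (log2 change 6.33, SE 0.70, edgeR adjusted p = 0.000509). Nlrp12 had 0 counts in wt LSK and 6.26, 11.7 and 14 CPM in the leukemic libraries, at least 199.99-fold higher (edgeR adjusted p = 0.000501). Casp12, an inflammatory caspase gene, went the other way, from 27.4, 35.5 and 40.9 CPM to 3 counts, a difference of 721-fold (95% counting interval 246 to 3497). Of 20 scavenger receptor and lipid uptake genes, 8 were higher and 5 lower, with Colec12 and Olr1 leading the rises and Vldlr the falls (211, 211 and 299 to 3.61, 0 and 0 CPM, edgeR adjusted p = 0.00941, no call with no filter on low counts). Without wt LSK replicate 1 or 2, 3 genes of this list were lower.

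The Schlafen and Gimap families split. Gimap proteins are GTPases of lymphocytes, and Schlafen proteins are regulators of blood cell growth and antiviral factors. Of 16 genes, 3 were higher and 9 lower (median -1.46), and the 3 were Slfn1, Slfn2 and Slfn4. Slfn4 (NCBI gene 20558, chromosome 11, 83175172 to 83190216) had 0.698, 1.26 and 0.204 CPM in wt LSK and 216, 211 and 237 CPM in the leukemic libraries (log2 change 8.42, SE 0.52, edgeR adjusted p = 3.2e-05), with all leukemic libraries alike. Gimap6 (NCBI gene 231931, chromosome 6, 48701583 to 48708244) had 175, 228 and 135 CPM and 1.44, 2.67 and 0.661 CPM (log2 change -6.68, SE 0.50, edgeR adjusted p = 6.63e-05). Gimap1 fell by 7.17 (edgeR adjusted p = 5.9e-05) but shares exons with Gimap1os, an antisense gene that unstranded counts cannot part from it. Slfn8 fell by 2.37 (edgeR adjusted p = 0.000228), so members of the Schlafen family went both ways. Slfn9 was also called lower, but not without wt LSK replicate 1 or 3.

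Genes of the protein factory did not move as 1 block. Secretory cells load the endoplasmic reticulum (ER) with folding enzymes, while ribosomes, tRNA synthetases and proteasomes serve all protein turnover. Of 30 ER folding and unfolded protein response genes, 18 were higher and 0 lower (median 0.82). Ero1a, which encodes the oxidase that drives disulfide formation (NCBI gene 50527, chromosome 14, 45283087 to 45318572), had 43.9, 41.6 and 40.3 CPM in wt LSK and 259, 292 and 278 CPM in the leukemic libraries (log2 change 2.87, SE 0.18, edgeR adjusted p = 3.39e-05). Edem1, which encodes a factor that sends misfolded proteins to degradation, had 123, 138 and 106 and 480.3, 537 and 849 CPM (log2 change 2.51, SE 0.27, edgeR adjusted p = 0.000366), and P4hb, a protein disulfide isomerase gene, 245, 303 and 284 and 865, 677 and 927 CPM (edgeR adjusted p = 0.000433). Xbp1, which encodes a transcription factor of the unfolded protein response, rose by 1.30 on the log2 scale (edgeR adjusted p = 0.00596). The chaperone gene Hspa5 had 1901, 1165 and 874 and 1614, 1832 and 1723 CPM and was not called (edgeR adjusted p = 0.225), though it was called without wt LSK replicate 1. The list had 11 calls without wt LSK replicate 1 and 9 without wt LSK replicate 3, all higher, and 1 gene was lower without iMLL-ENL total replicate 3, with upper quartile factors or with DESeq2's Wald test. Of 46 cytosolic ribosomal protein genes, 2 were called, both lower: Rps24 fell by 1.13 (edgeR adjusted p = 0.00196) and Rps6 by 1.07 (edgeR adjusted p = 0.0225). The call of Rps6 was lost without any 1 wt LSK library and without iMLL-ENL total replicate 1, which left 1 call in that list, while 4 genes were lower with upper quartile factors. Of 37 ribosome assembly genes 2 were higher, Rrp12 and Bysl, and of 22 cytosolic tRNA synthetase genes 2 were higher, Dars and Nars. None of these 4 calls held with upper quartile factors, with no filter on low counts or without any 1 of the wt LSK libraries, and without iMLL-ENL total replicate 1 or 3 each of these lists had 1 call, which for ribosome assembly without replicate 1 was of a gene lower. Of 36 proteasome genes, 4 were higher, among them Psmd4 (log2 change 0.94, edgeR adjusted p = 0.0189), but 0 without wt LSK replicate 1 or 3, 1 without wt LSK replicate 2, 2 with upper quartile factors and 7 without iMLL-ENL total replicate 1. So 18 of 30 genes of the ER list and 4.35% of the ribosomal protein list were called, beside 30.6% over all genes.

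Redox, lipid and iron genes changed in both directions. Of 36 pentose phosphate, glutathione and peroxide genes, 11 were higher and 6 lower, but 3 were lower without wt LSK replicate 2 or 3. Gsr, the glutathione reductase gene (NCBI gene 14782, chromosome 8, 33653238 to 33698162), had 57.3, 64.8 and 53.4 CPM in wt LSK and 896, 1421 and 1238 CPM in the leukemic libraries (log2 change 4.50, SE 0.25, edgeR adjusted p = 1.78e-05). Pgd, an NADPH-producing enzyme gene of the pentose phosphate pathway, had 67, 86.5 and 77.8 and 461, 634 and 592 CPM (edgeR adjusted p = 5.13e-05), and G6pdx, which shares exons with Ikbkg, rose by 1.72 (edgeR adjusted p = 0.00353). Gpx3 rose by 5.34 (edgeR adjusted p = 0.000125), while the glutathione transferase gene Gsta4 fell by 4.23 (edgeR adjusted p = 0.0035). Of 35 fatty acid and lipid droplet genes, 10 were higher and 9 lower, a near tie that turned to 8 and 9 with upper quartile factors, where the median went from 0.14 to -0.01. Dgat2, which encodes an enzyme of triglyceride synthesis, had 0.376, 0.274 and 0.255 and 8.39, 16.6 and 18.6 CPM (log2 change 5.72, SE 0.54, edgeR adjusted p = 0.000191). The 9 genes called lower include those of the desaturases and elongases Fads1, Fads2, Fads3, Elovl6 and, not without wt LSK replicate 3, Scd2. Elovl6 had 147, 186 and 174 and 13.6, 10.7 and 19 CPM (edgeR adjusted p = 8.71e-05). That list had 7 higher and 5 lower without wt LSK replicate 3, and 6 and 8 without wt LSK replicate 1. Of 29 heme and iron genes, 7 were higher and 3 lower, so 34.5% were called, near the 30.6% over all genes. Lcn2, which encodes an iron-trapping protein of neutrophil granules, had 1.24, 17.1 and 1.28 and 209, 1136 and 1958 CPM (edgeR adjusted p = 0.0099, no call with no filter on low counts), and Slc11a1, the phagosome iron transporter gene, 0.269, 0.165 and 0.204 and 10.1, 2.56 and 13.8 CPM (edgeR adjusted p = 0.00135). Tfr2, the transferrin receptor gene of erythroid cells, fell from 60, 89.1 and 75.8 to 0.278, 0.556 and 0.264 CPM (log2 change -7.52, SE 0.38, edgeR adjusted p = 1.37e-05). Without wt LSK replicate 3 the heme and iron list had 4 higher and 2 lower, and 4 and 3 without wt LSK replicate 1.

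Energy and building-block genes held few calls: 17.5% of oxidative phosphorylation, 22.2% of TCA cycle, 15.4% of cholesterol and 21.2% of nucleotide synthesis genes, beside 30.6% of all genes. Of 40 nuclear genes of oxidative phosphorylation, 7 were higher and 0 lower (median 0.70), led by Ndufb7 (log2 change 1.54, edgeR adjusted p = 0.0368) and Ndufb3 (edgeR adjusted p = 0.0343). In this list 0 genes were called without wt LSK replicate 1 or 3, 2 without wt LSK replicate 2, 1 without iMLL-ENL total replicate 2, where the median was 0.24, 4 without its replicate 3, and 1 with upper quartile factors. Of 27 TCA cycle genes, 5 were higher and 1, the malic enzyme gene Me1, was lower, with 1 count in iMLL-ENL total and no call without wt LSK replicate 1 or 3. Idh1, the cytosolic isocitrate dehydrogenase gene, had 26.4, 47.5 and 37.2 and 149, 183 and 167 CPM (log2 change 2.33, SE 0.24, edgeR adjusted p = 0.000268). The TCA list had 2 higher without wt LSK replicate 1, 3 without wt LSK replicate 3 and 8 without iMLL-ENL total replicate 2, and its lower calls ran from 0 to 3 over the alternatives. Of 26 cholesterol synthesis genes, 4 were higher, among them Sc5d (log2 change 1.77, edgeR adjusted p = 0.0012), and 0 lower, or 1 without iMLL-ENL total replicate 3. Of 33 nucleotide synthesis genes, 3 were higher and 4 lower, with a median of 0.13 that became -0.02 with upper quartile factors, and 2 were lower without wt LSK replicate 1. Impdh1, which encodes an enzyme of guanine nucleotide synthesis, fell from 15.5, 27.4 and 16.8 to 2.36, 1.78 and 2.51 CPM (log2 change -2.99, SE 0.37, edgeR adjusted p = 0.000708). Of 20 retinoid and aldehyde dehydrogenase genes, 7 were higher and 2 lower, but 3 were higher without wt LSK replicate 3 and 4 without wt LSK replicate 1, wt LSK replicate 2 or the leukemic replicate 3. Aldh1a1, the retinaldehyde dehydrogenase gene, had 6.5, 10.5 and 19.8 CPM in wt LSK and 1 count in iMLL-ENL total, a difference of 772-fold (95% counting interval 138 to 30549.9). Aldh3b1 rose by 4.72 (edgeR adjusted p = 0.00122).

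Growth factor receptors and the TGF-beta pathway held more genes lower than higher. Of 18 receptor tyrosine kinase genes tested, 8 were lower and 1 higher (median -1.35), and the 1 was Flt1, a VEGF receptor gene, whose call was lost without any 1 wt LSK library and without iMLL-ENL total replicate 1 or 3. The list's median was -2.99 without iMLL-ENL total replicate 1, -2.06 without its replicate 3, -0.991 without its replicate 2, where 3 genes were higher, and -2.25 with limma-voom. Tek, the receptor gene for angiopoietins on stem cells and endothelium, had 46.6, 24.3 and 44.4 CPM in wt LSK and 0, 0.333 and 0.132 CPM in the leukemic libraries (log2 change -7.83, SE 0.77, edgeR adjusted p = 0.000231). Tie1, its partner, had 25.9, 27.9 and 33.9 and 0.278, 0.389 and 1.19 CPM (log2 change -5.36, SE 0.58, edgeR adjusted p = 0.000363). Of 24 genes of the TGF-beta, BMP and SMAD pathway, 9 were lower and 2 higher (median -0.99), with 1 higher without wt LSK replicate 1, without iMLL-ENL total replicate 2 or 3 or with a minimum count of 50, and a median of -1.58 without iMLL-ENL total replicate 3. Eng, which encodes the coreceptor endoglin (NCBI gene 13805, chromosome 2, 32646595 to 32682669), had 88.5, 116 and 101.3 and 4.17, 4 and 4.76 CPM (log2 change -4.40, SE 0.23, edgeR adjusted p = 1.43e-05), and Smad3, a signal transducer, 131, 129 and 119 and 21.7, 21.8 and 28.3 CPM (edgeR adjusted p = 0.000191). The type I receptor gene Acvrl1 rose from 0.215, 0.494 and 0.918 to 2.41, 6.06 and 17.3 CPM (edgeR adjusted p = 0.00837). Among 27 JAK, STAT and SOCS genes, 7 were lower and 2 higher, but 4 and 2 without wt LSK replicate 1 and 7 and 5 without iMLL-ENL total replicate 2. The share called in this list, 33.3%, was near the 30.6% over all genes. Socs2, a feedback inhibitor that cytokines induce, had 11.8, 9.33 and 6.78 and 0.232, 0.278 and 0.0881 CPM (log2 change -5.39, SE 0.61, edgeR adjusted p = 0.000434). Socs3, another feedback inhibitor, fell by 2.79 (edgeR adjusted p = 0.0226) but lost its call when wt LSK replicate 1 or 2 was left out, or replicate 3 of iMLL-ENL total. Ptpn6, which encodes the phosphatase SHP-1, rose by 1.49 (edgeR adjusted p = 0.00196). The guidance genes, semaphorins, plexins, ephrins and Robo receptors, had 9 lower and 5 higher of 25, and 3 were higher without wt LSK replicate 1 or the replicate 3 of either group. Robo4 (NCBI gene 74144, chromosome 9, 37401902 to 37414023) had 36.3, 45.4 and 35.4 CPM in wt LSK and 0 counts in iMLL-ENL total, at least 808-fold lower (edgeR adjusted p = 5.9e-05), and Sema4a rose by 4.08 (edgeR adjusted p = 0.00264).

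Signalling genes inside the cell gave calls in both directions. Inpp4b, a phosphoinositide phosphatase gene, fell by 2.86 (edgeR adjusted p = 0.00147), which gives no direction for its list, not reported here. The 34 RAS and MAPK genes had 29.4% called beside 30.6% of all genes, with 4 higher and 6 lower and a split that turned to 5 and 3 without wt LSK replicate 2 and to 4 and 3 without wt LSK replicate 1. Rras2 fell from 13.1, 16.8 and 14.6 to 0.788, 0.333 and 0.176 CPM (log2 change -4.93, SE 0.57, edgeR adjusted p = 0.000517). The 24 Notch pathway genes had 6 higher and 6 lower, 4 and 6 with upper quartile factors: the coactivator gene Maml3 fell from 207, 229.7 and 221 to 31.4, 23 and 33.9 CPM (log2 change -2.74, SE 0.21, edgeR adjusted p = 8.1e-05) and Dtx4 rose from 14.2, 29.2 and 20.6 to 122, 114 and 162 CPM (log2 change 2.81, SE 0.29, edgeR adjusted p = 0.000308). Of 34 ion channel and calcium genes, 11 were higher and 7 lower, 8 and 8 with upper quartile factors, and 7 and 5 without wt LSK replicate 2. Kcnj2, a potassium channel gene, rose from 3.81, 2.19 and 2.35 to 54.2, 78.2 and 60 CPM (log2 change 4.66, SE 0.35, edgeR adjusted p = 6.63e-05). The 17 matrix proteases and inhibitors had 7 each way. Mmp9, the gelatinase gene of neutrophil granules, had 0.107, 0.494 and 0 CPM and 7.09, 218 and 289 CPM (edgeR adjusted p = 0.00657, no call with limma-voom), and the protease inhibitor gene Timp3 fell by 5.02 (edgeR adjusted p = 0.0205), with exons shared with Syn3 and no call without wt LSK replicate 1 or 3. The 20 tetraspanins had 5 each way, with Cd63, a granule and lysosome membrane gene, higher by 2.72 (edgeR adjusted p = 0.00355), and 2 higher and 4 lower without wt LSK replicate 3, 2 and 5 without wt LSK replicate 1 and 3 and 5 without iMLL-ENL total replicate 3. The 21 amino acid transporters had 5 higher and 4 lower, 4 and 4 with upper quartile factors with a median of -0.04 in place of 0.12, 2 and 0 without wt LSK replicate 1 or 3, 4 and 1 without wt LSK replicate 2, 6 and 2 without iMLL-ENL total replicate 2 and 2 and 3 without iMLL-ENL total replicate 3. Of 30 cytokine and growth factor genes, 7 were higher and 8 lower, but 3 and 6 without wt LSK replicate 2, 4 and 7 without wt LSK replicate 1 and 4 and 8 with a minimum count of 50. Tnfsf10, which encodes TRAIL, had 164, 162 and 191 and 8.11, 1 and 4.84 CPM (log2 change -5.06, SE 0.64, edgeR adjusted p = 0.000925), and Inhba, which encodes an activin subunit, 0.215, 0 and 0.153 and 1.62, 2.56 and 18.7 CPM (edgeR adjusted p = 0.00921).

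In the nucleus, developmental transcription factor lists held more genes lower than higher. Of 29 Sox, Fox and homeobox genes tested, 14 were lower and 4 higher (median -0.90), 9 and 2 without wt LSK replicate 1 or 3, and 9 and 3 without wt LSK replicate 2. Sox6 had 52.3, 55 and 74.1 CPM in wt LSK and 0, 0.167 and 0.132 CPM in the leukemic libraries (log2 change -9.04, SE 0.59, edgeR adjusted p = 4.19e-05), and Foxo3, a factor of stem cell quiescence, 212, 180.1 and 217 and 64.3, 15.4 and 64.5 CPM (edgeR adjusted p = 0.0188, no call without wt LSK replicate 1 or 3). Of 23 nuclear receptor genes, 8 were lower and 1, Nr1h2, higher, with no call without any 1 wt LSK library, without iMLL-ENL total replicate 3, with upper quartile factors or with no filter on low counts. Pgr, the progesterone receptor gene, had 76.5, 67.6 and 103 CPM in wt LSK and 0 counts in iMLL-ENL total, at least 1722-fold lower, and Rora fell by 2.92 (edgeR adjusted p = 0.00276). Of 26 Klf, Sp and Irf genes, 6 were lower and 3 higher, 4 and 1 without wt LSK replicate 1 or 3, 5 and 1 without wt LSK replicate 2, 8 and 1 without iMLL-ENL total replicate 3 and 6 and 1 with upper quartile factors. The share called in this list with all libraries, 34.6%, was near the 30.6% over all genes. Irf1, an interferon response factor gene, fell from 74.6, 103 and 69.4 to 21.6, 22.4 and 29.3 CPM (log2 change -1.59, SE 0.24, edgeR adjusted p = 0.00177), and Klf13 rose by 1.84 (edgeR adjusted p = 0.00141). Of 22 clock genes, 8 were lower and 4 higher, 4 each way without wt LSK replicate 1, and 5 and 3 without replicate 3 of either group. The repressor gene Nr1d1 fell by 2.17 (edgeR adjusted p = 0.00288). The labels give no time of day for the samples. Of 16 imprinted genes tested, 5 were lower and 1, Ascl2, higher, and 9 were lower without iMLL-ENL total replicate 2 and 8 without iMLL-ENL total replicate 1. Grb10, an adaptor gene that restrains growth signals, fell from 58.3, 36.3 and 62 to 0.0927, 0 and 0.264 CPM (log2 change -8.47, SE 0.68, edgeR adjusted p = 9.08e-05), and Sgce from 21.2, 38 and 28.9 to 0.139, 0 and 0.044 CPM (log2 change -8.56, SE 0.65, edgeR adjusted p = 6.85e-05).

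Chromatin and repair genes held a few large changes among many small ones. Of 27 histone genes tested, 5 were higher and 1 lower, or 2 lower with no filter on low counts. The 5 were H2ax and the linker histone genes H1f2, H1f3, H1f4 and H1f5, which compact chromatin. H1f4 had 22.5, 62.8 and 47 CPM in wt LSK and 99.2, 164 and 211 CPM in the leukemic libraries (log2 change 2.02, SE 0.40, edgeR adjusted p = 0.00615). Macroh2a1, which encodes the repressive variant macroH2A (NCBI gene 26914, chromosome 13, 56073622 to 56135626), fell from 1605, 2332 and 1473 to 454, 674 and 403 CPM (log2 change -1.66, SE 0.26, edgeR adjusted p = 0.00214). Of 51 DNA repair genes, 7 were lower and 3 higher, 19.6% called beside 30.6% over all genes, with 5 and 1 without wt LSK replicate 1, 7 and 1 without wt LSK replicate 2, 3 and 2 without wt LSK replicate 3, and 8 and 1 with upper quartile factors or no filter on low counts. Xrcc5, which encodes the Ku80 subunit of the end-joining complex (NCBI gene 22596, chromosome 1, 72307417 to 72394953), had 43.8, 55.2 and 63.6 CPM and 1.81, 7.5 and 5.11 CPM (log2 change -3.33, SE 0.49, edgeR adjusted p = 0.00157). Its partner gene Xrcc6, for Ku70, fell by 0.79 (edgeR adjusted p = 0.0342) and lost its call without wt LSK replicate 2 or 3 or iMLL-ENL total replicate 3. Parp1 fell by 1.11 (edgeR adjusted p = 0.00189), and Fanca, whose exons overlap Zfp276, rose by 1.49 (edgeR adjusted p = 0.00133). Of 20 nuclear envelope genes, 5 were higher and 0 lower. Syne1, which encodes the giant linker nesprin 1 (NCBI gene 64009, chromosome 10, 5020192 to 5550692), had 99.5, 87.1 and 107 CPM and 584, 664 and 817 CPM (log2 change 2.97, SE 0.22, edgeR adjusted p = 6.63e-05), Sun2, its partner in the inner envelope, 73.4, 89.8 and 61 and 191, 353 and 193 CPM (edgeR adjusted p = 0.0018), and the lamin gene Lmnb1 91.5, 97.4 and 108 and 104, 95.5 and 109 CPM, not called (edgeR adjusted p = 0.393).

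Markers of other cells that unsorted marrow could hold were rarely higher in the leukemic libraries, with 1 such call over 4 lists, and 2 without wt LSK replicate 2, without iMLL-ENL total replicate 1 or with no filter on low counts. None of the 4 lists is of normal granulocytes, monocytes or B cells. The wt LSK libraries themselves held transcripts of all 4 lists, as the sums below show. A lower level than in wt LSK is therefore no measure of how many such cells the marrow held. Of 11 red cell and erythroblast markers tested, 8 were lower and 0 higher, and the 15 markers listed summed to 98.8 to 135.6 CPM in wt LSK and 10.2 to 16.9 CPM in iMLL-ENL total. Without wt LSK replicate 3, or with a minimum count of 50, the red cell list had 4 lower. Cldn13 had 0 counts in the leukemic libraries. Of 13 T cell markers, 4 were lower and 0 higher, with sums of 84.0 to 163.5 CPM and 41.2 to 94.0 CPM. The share called, 30.8%, was near the 30.6% over all genes. Of 9 plasma cell markers, Sdc1 was lower and Xbp1 higher, with sums of 183.1 to 1214 CPM and 293.7 to 495.5 CPM, and the call of Sdc1 was lost without wt LSK replicate 2. Of 11 endothelial and stromal markers, 7 were lower and 0 higher, with sums of 285.9 to 356.6 CPM and 109 to 159.7 CPM, and Col3a1 had 0 counts in the leukemic libraries. The plasma cell genes move with the ER list only in Xbp1, which both lists hold; their part in that list was not tested.

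Promoters of strongly changed genes held fewer CpG pairs. Vertebrate promoters fall into CpG-rich ones, typical of genes used in many tissues, and CpG-poor ones, typical of tissue-restricted genes. RefSeq promoter windows of 300 bases, 250 before the start as that table gives it and 50 after, matched 10854 of the 13811 genes tested (GRCm38.p6). To show both kinds, the 250 bases before the start of 2 genes that rose and 2 that fell, 5′ to 3′ on the gene's strand, are printed here with each CpG in capitals. They were chosen after their values were seen and stand on the plus strand for Elane and Stfa1 and the minus strand for Hlf and Msi2. For Msi2 the start in that table lies a little inside the gene bounds given above, so the 3′ end of its stretch lies within them.
Elane, chr10:79886062-79886311: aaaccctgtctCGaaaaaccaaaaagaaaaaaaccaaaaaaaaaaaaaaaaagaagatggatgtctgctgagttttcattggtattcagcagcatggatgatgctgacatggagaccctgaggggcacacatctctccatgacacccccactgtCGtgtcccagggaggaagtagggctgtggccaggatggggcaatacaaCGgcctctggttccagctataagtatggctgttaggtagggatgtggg
Stfa1, chr16:36276898-36277147: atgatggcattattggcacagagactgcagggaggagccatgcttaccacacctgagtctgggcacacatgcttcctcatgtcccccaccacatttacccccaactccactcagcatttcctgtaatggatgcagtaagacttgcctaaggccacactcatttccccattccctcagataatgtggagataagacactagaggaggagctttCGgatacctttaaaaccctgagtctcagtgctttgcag
Hlf, chr11:90390918-90391167: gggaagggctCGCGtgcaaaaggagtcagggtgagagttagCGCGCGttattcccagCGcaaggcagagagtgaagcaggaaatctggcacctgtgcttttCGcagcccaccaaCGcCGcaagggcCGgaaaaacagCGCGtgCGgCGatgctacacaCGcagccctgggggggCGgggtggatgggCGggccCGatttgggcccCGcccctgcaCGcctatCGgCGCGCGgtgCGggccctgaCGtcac
Msi2, chr11:88718278-88718527: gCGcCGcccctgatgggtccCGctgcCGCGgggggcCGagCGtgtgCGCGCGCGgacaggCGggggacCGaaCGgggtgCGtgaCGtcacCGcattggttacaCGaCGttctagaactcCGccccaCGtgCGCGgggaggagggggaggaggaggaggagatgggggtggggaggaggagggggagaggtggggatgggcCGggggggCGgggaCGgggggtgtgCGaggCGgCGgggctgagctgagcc
The stretch before Elane, the neutrophil elastase gene, holds 3 CpG pairs and that before Stfa1 holds 1, while those before Hlf and Msi2, both at least 64-fold lower in the leukemic libraries, hold 26 and 29. Over the groups, the median number of CpG pairs in the 300 bases was 21 in genes not called, 10 in genes called at least 4-fold higher and 14 in genes called at least 4-fold lower. Windows with under 5 CpG pairs made up 8.49%, 29.9% and 18.8% of these groups, and 10.4% of all windows. So Hlf and Msi2 are on the CpG-rich side of the genes that fell, and the shift to CpG-poor windows was on both sides of the comparison.

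**Figure D4:**
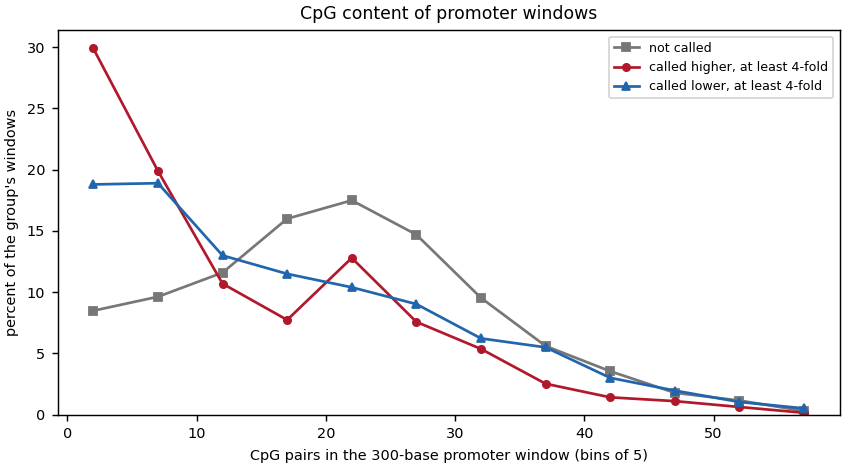
Percent of promoter windows (y axis) in bins of 5 CpG pairs per 300-base window (x axis) for genes not called, called at least 4-fold higher and called at least 4-fold lower. Genes not called peak at 20 to 24 CpG pairs, while 29.9% of the genes at least 4-fold higher lie in the lowest bin.

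Short motifs, searched on both strands of the 300 bases, were distributed unevenly too. CCGGAAG, the ETS motif of CpG-rich promoters, stood in 17.7% of all windows, in 20% of genes not called, in 7.74% of genes at least 4-fold higher and in 4.78% of genes at least 4-fold lower. GAGGAAG, the core of the PU.1 motif, stood in 13.6% of all windows and in 19.3% and 17% of the genes at least 4-fold higher and lower. TTGCNNAA, the C/EBP motif, stood in 8.53% of all windows and in 12.8% and 8.83% of them. TGTGGT, the Runx motif, stood in 13.1% of all and in 17.2% and 14.2%. The GATA motif, spelled AGATAA, stood in 6.76% of all and in 10.1% and 9.14%. In the printed stretches, GAGGAAG lies at -85 to -79 from the start of Elane on its own strand, and TTGCNNAA at -109 to -102 of Stfa1, which also has GAGGAAG on the other strand at -179 to -173. Stfa1 also has the GATA motif at -75 to -70 and -64 to -59, and the Runx motif on the other strand at -205 to -200 and -163 to -158. Neither the PU.1 nor the C/EBP motif was found in the printed stretches of Hlf and Msi2. The printed genes were picked after their values were seen, so they do not stand for either group. Other motifs searched are not all listed here, but CRE matched in both Hlf and Msi2, and the E box in Msi2. These are matches of letters and carry no measure of binding. The median GC content of the windows was 56.3% in genes at least 4-fold higher, 59.7% in genes at least 4-fold lower and 60.3% in all. How far base composition goes with the motif shares was not tested.

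The leukemic libraries differed among themselves more than the wt LSK libraries did, over most genes, with the widest ranges in a few. The median SD of log2 CPM over 3 libraries was 0.44 in iMLL-ENL total and 0.25 in wt LSK, and 73.5% of genes were wider in iMLL-ENL total. At a mean log2 CPM of 5 or more, the widest ranges over the leukemic libraries included those of Epha7, Slc22a3, Hnf4a, Cdc42bpa, Eya1, Stfa2 and Igf2r. Hnf4a, a nuclear receptor gene of liver and gut, had 59.7, 47.5 and 48.9 CPM in wt LSK and 57.4, 0 and 0.176 CPM in the leukemic libraries. Cdc42bpa, a kinase gene of the actin cytoskeleton, had 157, 101.4 and 169.7 and 135, 0.444 and 0.308 CPM. For both, iMLL-ENL total replicate 1 stood at the wt LSK level and the other 2 leukemic libraries near 0. Slc22a3, an organic cation transporter gene, had 218, 167 and 243 and 89.3, 0 and 0.573 CPM, a like order. Epha7, an ephrin receptor gene, had 53.1, 35.6 and 50.9 and 461, 5.28 and 0.132 CPM, so the leukemic libraries lay above, below and far below normal. Igf2r, a receptor gene of lysosomal enzymes and IGF2, had 36.4, 51.6 and 34.4 and 94, 10.6 and 0.969 CPM. Neither Epha7 nor Hnf4a, Cdc42bpa, Slc22a3, Eya1 or Igf2r was called (edgeR adjusted p = 0.511, 0.62, 0.56, 0.32, 0.933 and 0.967). At a mean log2 CPM of 3 or more, 5 genes stood at the wt LSK level in iMLL-ENL total replicate 1 alone (Cdc42bpa, Hnf4a, Ranbp17, Paqr8 and BC016579), 1 in replicate 2 alone (Rag1) and 0 in replicate 3 alone. Here at the wt LSK level means a log2 difference within 1 of it while both other leukemic libraries lay lower by a log2 difference of at least 4. Without iMLL-ENL total replicate 1, Hnf4a, Cdc42bpa, Slc22a3, Epha7 and Igf2r were called lower, and Eya1 was not called. Replicate 1 was also the low one for S100a9 (385, 4243 and 3403 CPM), S100a8 (135, 1909.9 and 937) and Elane (993, 4787 and 1698). Lyz2 was lowest in replicate 2 (2017, 1868 and 8577 CPM). Over all genes replicate 2 stood furthest apart. At least 2-fold apart were 25.2% of genes between replicates 1 and 2 and 28.7% between 2 and 3, against 18.5% between 1 and 3. Over the leukemic libraries 63.3% of genes called higher, 51.1% of those called lower and 58.8% of all genes tested stayed within a 2-fold range.

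A whole chromosome stood apart in iMLL-ENL total replicate 2. For each leukemic library, the difference in log2 CPM from the other two was taken for each gene and its median over a chromosome set against the median over all genes, a view added after the data were seen. On chromosome 12 the median was 0.51 in replicate 2, with 75.8% of its 476 genes above 0, and -0.22 and -0.30 in replicates 1 and 3, which are measured against a mean that holds replicate 2. The other 19 chromosomes ran from -0.10 to 0.09 in replicate 2, from -0.06 to 0.04 in replicate 1 and from -0.06 to 0.07 in replicate 3. Cut into 12 windows of about 40 genes in order along the chromosome, all 12 had a median above 0 in replicate 2, from 0.31 to 0.73. Set against wt LSK instead, chromosome 12 had medians of 0.01, 0.53 and -0.02 in leukemic replicates 1, 2 and 3, and -0.06 to 0.02 in the wt LSK libraries. In the fit of all libraries the median log2 change of chromosome 12 was 0.23, and 0.01 without iMLL-ENL total replicate 2. DNA was not measured, and whether the copy number of the chromosome differed was not tested. Named genes on chromosome 12 whose highest leukemic library was replicate 2 include Rhoj, with 8.57, 70 and 28.8 CPM, and Adssl1, with 71.5, 169 and 71.9 CPM. Both are called higher in iMLL-ENL total (edgeR adjusted p = 0.00599 and 0.00367). Rhoj and Adssl1 were picked for that order, so they are no separate sign of the shift. On the same chromosome, Tspan13 and Rnf144a had their lowest leukemic level in replicate 2. In the fit, chromosomes 18 and X had the lowest medians, -0.22 and -0.16. The 366 genes tested on chromosome 18 include 22 gamma protocadherin genes called lower, which count as 1 signal, as given below. Among abundant genes, here a mean log2 CPM of 5 or more, the medians of chromosome 18 in leukemic replicates 1, 2 and 3 against wt LSK, less those over all genes, were -0.09, -0.08 and -0.06, and those of X were -0.08, -0.11 and -0.15. Chromosome 17 had 0.03, -0.15 and -0.13 there, so chromosome 18 did not keep its rank in replicates 2 and 3.

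**Figure D5:**
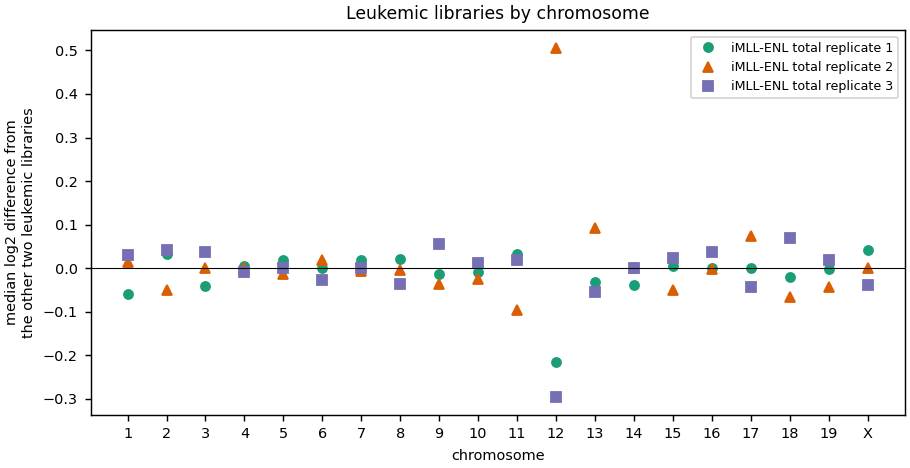
Median over the genes of each chromosome (x axis) of the log2 difference of a leukemic library from the other two, less the same over all genes (y axis), for the 3 iMLL-ENL total libraries. Replicate 2 lies at 0.51 on chromosome 12, while every other chromosome lies between -0.10 and 0.09 in all 3 libraries.

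Called genes also stood side by side in the genome. Among tested genes in their order, 26 runs of at least 5 neighbours were called the same way, 15 higher and 11 lower. The longest, 22 gamma protocadherin genes on chromosome 18, share their last exons and count as 1 signal (37661775 to 37841873, log2 changes from -2.55 to -1.53). Also sharing exons are the 6 Ugt1a genes of the run on chromosome 1. On chromosome 6, 9 genes from C3ar1 through the Clec4 lectins to Clec4e were higher (122847140 to 123289871, median 4.54), as were 8 stefin genes on chromosome 16 (36156811 to 36455392, median 9.28) and 8 genes on chromosome 3, all but Tchh of the S100 family (90511034 to 93526288, median 4.59). At the ends of the Clec4 run, C3ar1 and Clec4e lost their calls without any 1 wt LSK library and without iMLL-ENL total replicate 3. Clec4n had 0, 0.0549 and 0.102 CPM in wt LSK and 1.71, 1.94 and 7.49 CPM in the leukemic libraries. In contrast Necap1, an endocytosis gene that is no lectin and lies within the run, had 37.3, 31.5 and 33.2 and 51.1, 43.2 and 52.4 CPM (log2 change 0.67, edgeR adjusted p = 0.0438) and no call without any 1 wt LSK library or without iMLL-ENL total replicate 1 or 3. On chromosome 3, 8 genes around the purinergic receptors P2ry14, P2ry13 and P2ry12 were lower (59005419 to 59344438, median -6.29). Gpr171, an orphan receptor gene in that run, had 451, 399 and 412 and 4.49, 10.8 and 10.6 CPM (log2 change -5.45, SE 0.38, edgeR adjusted p = 5.9e-05). Another 9 neighbours on chromosome 6 were lower over 6701 kb (58933536 to 65634040). They ran from a small change in Smarcad1, a chromatin remodeler gene, with 207, 185 and 220.3 and 136, 107 and 109 CPM and no call without wt LSK replicate 1 or 3 or iMLL-ENL total replicate 2, to a large one in Mmrn1, which encodes a platelet adhesion protein, with 91.2, 112 and 115 and 0.0463, 0 and 0 CPM. The guanylate-binding protein genes on chromosome 5, which interferons induce, made a run of 7 lower genes with Lrrc8b and Lrrc8c (105076464 to 105613018, median -4.01). Neighbouring copies of a family share sequence, so their counts are not independent. With runs of at least 4 the number was 70.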

How the data were processed

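RNA of bone marrow cells was isolated with PicoPure and amplified with NuGen Ovation, an unstranded kit, per the labels' protocols. The deposited table holds whole-number read counts per gene and a gene width column (other), made by the authors. The submitters' processing notes name GRCm38, mm10 and edgeR, while aligner and counter are not stated there. Gene IDs were named and placed by RefSeq on GRCm38.p6, and genes sharing at least 10% of their exon bases with another gene were called uncertain.

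Genes with a minimum count of 10 by edgeR's filter were tested with edgeR 4.0.16 (quasi-likelihood, robust, TMM, 3 against 3 libraries, two-sided, Benjamini-Hochberg, threshold 0.05) in R 4.3.3, after the code was tested on simulated data. Differences between single libraries used log2 CPM with a prior count of 2. Alternatives were DESeq2 1.42.0 size factors and Wald test, upper quartile factors, limma-voom 3.58.1, a fold of at least 2, other filters, a replicate block and leaving out each library. With 2 libraries left in a group, that group still has a spread of its own.

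The comparison, gene lists and tests were chosen with earlier results of these data known. Genes were named by rule: Kmt2a and Mllt1, the 2 largest called changes of each list in its main direction and the 1 largest the other way at an average log2 CPM of at least 2, the 10 largest rises and falls without overlap at 7 or more, the 10 most abundant per length in each group, and the 8 widest ranges over leukemic libraries at 5 or more, and members of runs of neighbours. Some of these genes and gene lists are not reported here. Other named genes were chosen after their values were seen. Intervals and floors of 3 counts cover counting error only, and reads had no molecular identifiers stated.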

Additional observations from a re-analysis of the deposited data

How the results depend on the processing

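The number of genes called was 4221, and 2047 when a fold of at least 2 was tested, where 868 were higher and 1179 lower. Leaving out 1 library gave 2636 to 4528 calls, 1181 to 2253 higher and 1383 to 2275 lower. With DESeq2's Wald test 4901 genes were called and with limma-voom 4517. Runs of neighbours numbered 26 with at least 5 genes and 70 with at least 4. Of 152 named genes called, 104 kept direction and call in all alternatives and 114 in all but the fold of at least 2.

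Some genes that were not called changed sign. Malat1 had a log2 change of -0.06 and -0.34 to 0.16 with a library left out. Rpl4 had 0.12, -0.034 with upper quartile factors and -0.11 to 0.21 with a library left out. Atp5b had 0.01, -0.0419 with DESeq2 size factors or the Wald test, -0.0443 with a minimum count of 50, -0.13 with upper quartile factors, -0.00607 with limma-voom, -0.0285 with no filter, -0.0061 with the replicate block, and -0.15 to 0.10 with a library left out. Epha7 had 1.85, -2.48 with limma-voom, -2.23 with the replicate block and -3.98 to 2.42 with a library left out. Eya1 had -0.19 and -2.39 to 0.40, and Igf2r -0.09 and -2.67 to 0.44, with a library left out. The cause was not tested.

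With the replicate number as a block 4048 genes were called, among them 5 of the 10 stefins and cystatins and 3 scavenger receptor genes lower in place of 5, and Vldlr was not called. The labels tie the libraries of both groups only by number. The correlations of same-numbered libraries' deviations were 0.02, 0.16 and -0.04, and only wt LSK replicate 2 correlated best with its own number. These correlations cannot tell whether same-numbered libraries were prepared together. Depth of 18001563 to 22706882 counts limits genes of few counts, and 3 libraries a group limit what small changes can be called.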
